A study of Mus musculus with 2 samples.

Results

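The mitosis genes of G2 and M phase described here are 51 named genes, found by an exact match of their symbols among the 31053 genes of the deposited matrices, with each symbol found once. They encode the kinase that starts mitosis and its partners, the ubiquitin enzymes that end it, and proteins of the kinetochore, spindle, chromosome and nuclear envelope. The genes were measured in immature γδ T cells from wild-type, untreated C57BL/6 mouse fetal thymus. Thymic lobes taken at embryonic day 15 were cultured for 2 days, and CD24+ γδ T cells were sorted by TMRE, a dye that accumulates in mitochondria with a high membrane potential. The bright fraction (TMREhi) gave 1 library and the dim fraction (TMRElo) gave 1 library, both made with a droplet kit that reads the 5′ ends of transcripts. The labels do not say how many embryos were pooled for each fraction. With 1 library per fraction no test between fractions was possible, and the sort fraction and its library cannot be told apart.

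Mitosis is driven by cyclin-dependent kinase 1 with its B-type cyclins, which rise through G2 and are destroyed when the anaphase-promoting complex, a ubiquitin ligase, is switched on. Most genes of this phase are silent in resting cells and are switched on together late in the cycle. Their promoters often hold CCAAT boxes, bound by the factor NF-Y, and cell cycle homology regions (CHR), bound by the DREAM complex in resting cells and by the MuvB complex with B-MYB in dividing cells. In the fetal thymus, γδ T cell precursors divide before and while they mature, in waves marked by the V segment of their γ chain.

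Both elements were common in the promoters of the 51 genes. RefSeq promoters on GRCm38.p6, from 250 bases before to 50 bases after the start of transcription, were matched by symbol for 45 of the 51 genes. These genes have 50 promoters in the table, and a gene was counted when any of its promoters held the motif. Cdca2, Dlgap5, Cdc25c, Aurkb, Tpx2 and Smc4 were not matched. The CHR motif was searched as TTTGAA on both strands, which reads TTCAAA from the other side. The CCAAT motif was likewise searched on both strands, and reads ATTGG from the other side. A CHR and a CCAAT match can share an end base, and both were then counted. The CHR motif was in a promoter of 32 of the 45 genes (71.1%), against 20.2% of all 27025 genes in the same table. At least 2 CCAAT motifs were in a promoter of 28 genes (62.2%), against 13.3% of all genes. A CHR motif together with at least 2 CCAAT motifs in the same promoter was found for 22 genes (48.9%), against 2.42% of all genes and 2.48% of protein-coding ones. In the 250 bases before the start alone, the CHR motif was found for 19 genes (42.2%), against 18.3% of all genes. A match is a match of letters and not a measured site.

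The 120 bases before the start are shown for genes whose values recur in what follows, with CHR and CCAAT motifs in capitals, written 5′ to 3′ in the direction of the gene. Cdk1, Ube2c, Cdc20 and Top2a hold both motifs in this stretch, Ccnb2 and Hmmr hold 3 CCAAT motifs and no CHR motif in it, and Birc5 holds neither. Elsewhere in the promoter searched above, Ccnb2 and Hmmr do hold a CHR motif, and both were counted as holding one.
Cdk1, chr10:69352913-69353032, minus strand: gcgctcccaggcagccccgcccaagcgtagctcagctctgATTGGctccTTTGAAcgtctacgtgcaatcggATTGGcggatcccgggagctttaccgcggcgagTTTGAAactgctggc
Ccnb2, chr9:70421555-70421674, minus strand: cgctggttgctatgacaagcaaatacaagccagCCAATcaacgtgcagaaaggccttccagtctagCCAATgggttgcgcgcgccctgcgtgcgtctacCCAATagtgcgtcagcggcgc
Ube2c, chr2:164769809-164769928, plus strand: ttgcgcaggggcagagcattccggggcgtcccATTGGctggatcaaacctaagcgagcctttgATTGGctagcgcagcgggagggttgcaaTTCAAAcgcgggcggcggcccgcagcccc
Cdc20, chr4:118437344-118437463, minus strand: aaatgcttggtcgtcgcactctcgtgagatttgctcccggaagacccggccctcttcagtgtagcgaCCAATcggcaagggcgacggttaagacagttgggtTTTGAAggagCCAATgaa
Top2a, chr11:99024190-99024309, minus strand: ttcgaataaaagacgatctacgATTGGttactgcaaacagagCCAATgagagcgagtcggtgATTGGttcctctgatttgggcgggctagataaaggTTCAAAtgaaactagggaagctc
Hmmr, chr11:40733438-40733557, minus strand: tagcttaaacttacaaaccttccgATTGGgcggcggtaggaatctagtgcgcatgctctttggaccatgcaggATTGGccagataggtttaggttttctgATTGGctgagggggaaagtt
Birc5, chr11:117849117-117849236, plus strand: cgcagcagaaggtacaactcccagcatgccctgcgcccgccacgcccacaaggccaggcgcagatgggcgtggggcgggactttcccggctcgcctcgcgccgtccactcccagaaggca

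Expression was counted in UMIs (unique molecular identifiers, a count of captured transcripts). Barcodes with 500 genes or more and a mitochondrial share of UMIs up to 10% are called retained cells. They numbered 317 in TMREhi, holding 2905666 UMIs (median 7465 per cell) and 34 in TMRElo, holding 105080 UMIs (median 1679). No barcode was shared between the libraries. Levels are summed UMIs scaled to the total of the cells in question, as counts per 1000000 UMIs (CPM), with exact Poisson 95% intervals for levels and exact conditional intervals for ratios, which hold counting error only. The γδ T cell markers were detected in both libraries, 8 of 8 genes in TMREhi and 7 of 8 in TMRElo, where Cd24a, the sorted surface marker, was at 0. The erythroid markers were at 0 in both, and of the B cell markers only Cd79b was detected. Myeloid markers summed to 220 CPM in TMREhi (5 of 5 detected) and 200 CPM in TMRElo (1 of 5), and αβ lineage thymocyte markers to 343 CPM in TMREhi (8 of 8) and 257 CPM in TMRElo (4 of 8). Of thymic epithelial markers only Epcam was detected, at 18.2 CPM in TMREhi and 47.6 CPM in TMRElo.

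On GENCODE vM21 (GRCm38) the 51 genes lie on 18 chromosomes. None overlaps another counted gene on its own strand. On the other strand, 12 overlap a counted gene: Ube2c (Tnnc2), Cdc20 (Elovl1), Cdca8 (9930104L06Rik), Nusap1 (Oip5), Tacc3 (Tmem129), Tubb4b (Fam166a), Rangap1 (Zc3h7b), Lbr (Dnah14), Tmpo (Gm26765), Nek2 (Gm38037), Ckap2l (Gm14024) and Cdc25c (Gm3550). The strand setting of the counting is not given in the sources used here, so reads of such pairs could belong to either gene. Tubb4b, Hmgb2, Cks1b and Tmpo also have close relatives or copies in the genome, and their values are less certain for that reason.

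The 51 genes together held 29909 UMIs, or 10293 CPM (10177–10411), in retained TMREhi cells, and 575 UMIs, or 5472 CPM (5034–5938), in retained TMRElo cells. The ratio was 1.88 (1.73–2.05). With a filter on the mean of the libraries at 10 CPM, 49 genes remained for counting, of which 44 were higher in TMREhi and 5 lower there. At least a 2-fold difference, with a count under 3 in the lower library taken as 3, was seen for 15 genes higher in TMREhi, against 3.81% of all 7802 genes past the same filter, and for 1 gene lower, against 30.5% of all genes. The median log2 ratio of the 49 was 0.77, or 0.69 with such low counts taken as 3, and that of all genes was -0.35. The calls are not alike in the directions, as 3 UMIs are 1.03 CPM in TMREhi and 28.5 CPM in TMRElo. A low gene can pass the filter and be called lower on few TMRElo UMIs, but cannot be called higher. The all-gene share of 30.5% and the all-gene median include such genes. The 2 genes below the filter were Psrc1 and Gtse1, spindle-associated proteins, at 21 UMIs (Psrc1) and 38 UMIs (Gtse1) in TMREhi and both at 0 in TMRElo.

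**Figure D1:**
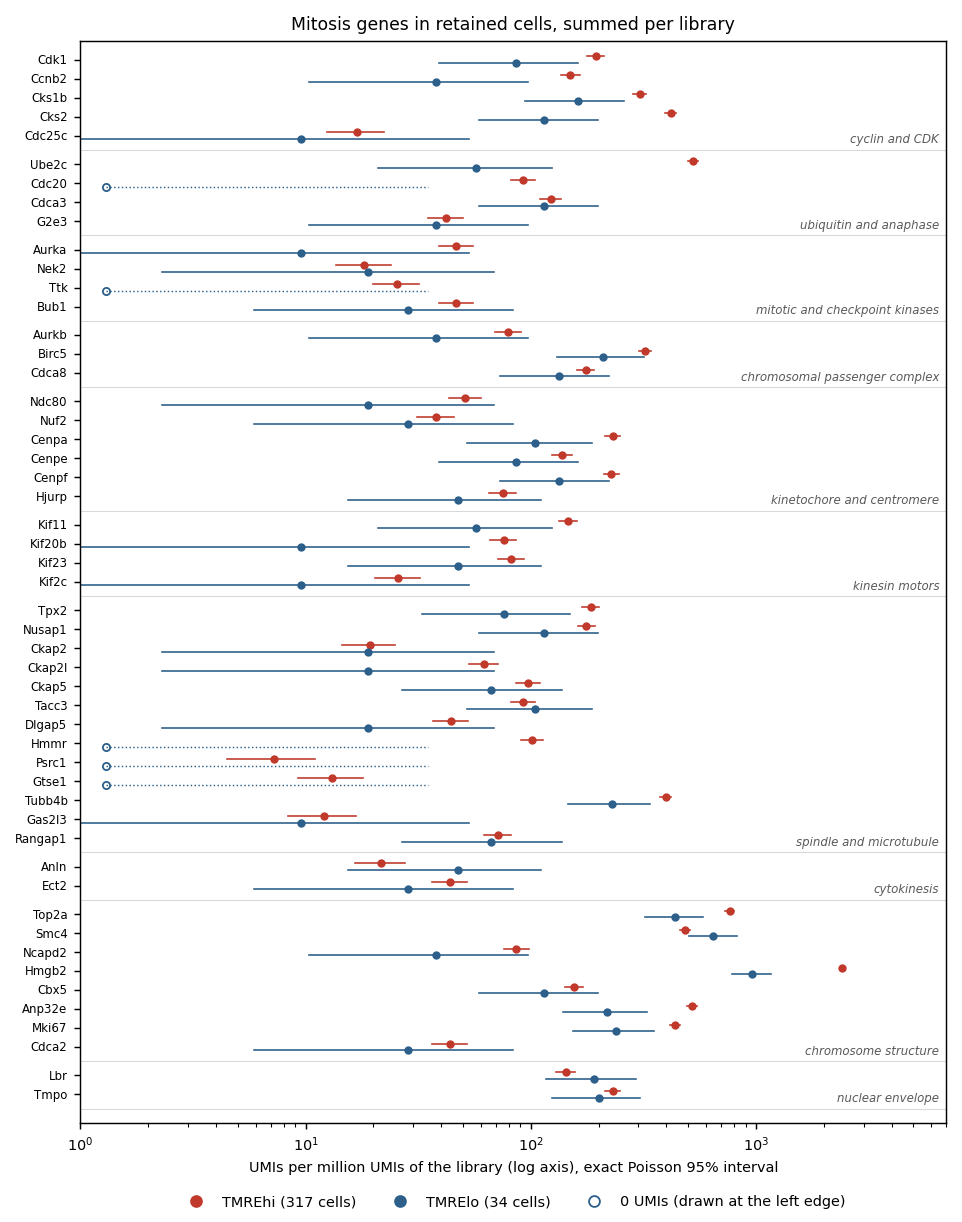
CPM in retained cells for each of the 51 genes, grouped by role, in TMREhi (red, 317 cells) above TMRElo (blue, 34 cells), with exact Poisson 95% intervals on a log axis. Genes with 0 UMIs in TMRElo are drawn as open circles at the left edge with the interval dotted, and the TMRElo intervals are wide because the whole list has 575 UMIs there.

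The cyclin and kinase group of the list was higher in TMREhi in 5 of 5 genes. Cdk1, the mitotic kinase, stood at 194 CPM in TMREhi and 85.6 CPM in TMRElo (ratio 2.27, 1.19–4.98). Ccnb2, its cyclin B2 partner, stood at 150 CPM in TMREhi and 38.1 CPM in TMRElo (3.94, 1.53–14.5), where it had 4 UMIs. Cyclin B1 (Ccnb1), which is outside the list, stood at 105 CPM in TMREhi and 95.2 CPM in TMRElo (1.10, 0.590–2.32), from 10 UMIs in TMRElo. Cks2, a small subunit that helps the kinase bind its targets, stood at 417 CPM in TMREhi and 114 CPM in TMRElo (3.66, 2.09–7.09). The related Cks1b had a smaller ratio, at 304 CPM in TMREhi and 162 CPM in TMRElo (1.88, 1.17–3.24). Of the same group, Cdc25c, a phosphatase that activates the kinase, had 49 UMIs in TMREhi and 1 in TMRElo. The related Cdc25b, also outside the list, stood at 37.2 CPM in TMREhi and 38.1 CPM in TMRElo (0.976, 0.371–3.65).

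The genes that act on the anaphase-promoting complex and the passenger complex divided. Ube2c, the ubiquitin-conjugating enzyme of that complex, and Cdc20, its activator, were at least 2-fold higher in TMREhi, with 1526 UMIs of Ube2c in TMREhi against 6 in TMRElo, and 268 UMIs of Cdc20 in TMREhi against 0 in TMRElo. Cdca3, a trigger of mitotic entry, stood at nearly the same level, 123 CPM in TMREhi and 114 CPM in TMRElo (1.07, 0.607–2.10). Of the chromosomal passenger complex, which corrects chromosome attachment, the kinase Aurkb stood at 79.2 CPM in TMREhi and 38.1 CPM in TMRElo (2.08, 0.801–7.70), survivin (Birc5) at 322 CPM in TMREhi and 209 CPM in TMRElo (1.54, 1.01–2.46) and borealin (Cdca8) at 175 CPM in TMREhi and 133 CPM in TMRElo (1.31, 0.776–2.42). The interval of Birc5 alone among these 3 left out 1.

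All 6 kinetochore and centromere genes and all 4 kinesin motors were higher in TMREhi. Cenpa, the histone H3 variant of centromeres, stood at 231 CPM in TMREhi and 105 CPM in TMRElo (2.21, 1.22–4.44), and Cenpf, a kinetochore protein, at 228 CPM in TMREhi and 133 CPM in TMRElo (1.71, 1.01–3.15). Kif11, the motor that pushes spindle poles apart, stood at 147 CPM in TMREhi and 57.1 CPM in TMRElo (2.57, 1.17–7.04). Kif20b, a motor of the late division stages, had 220 UMIs in TMREhi and 1 in TMRElo (7.96, 1.41–316). Of the 4 mitotic and checkpoint kinases, Ttk, which senses unattached kinetochores, had 74 UMIs in TMREhi and 0 in TMRElo, and Nek2, a centrosome kinase, stood at 18.2 CPM in TMREhi and 19 CPM in TMRElo.

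Among spindle genes, Hmmr, a spindle assembly factor, was at 295 UMIs in TMREhi against 0 in TMRElo (3.56-fold or more when set against 3 counts), and Tpx2, an activator of the Aurora A kinase, stood at 184 CPM in TMREhi and 76.1 CPM in TMRElo (2.42, 1.22–5.64). Tacc3, which stabilises spindle microtubules, was among the 5 genes lower in TMREhi, at 92.6 CPM in TMREhi and 105 CPM in TMRElo (0.884, 0.486–1.79). Of the chromosome genes, Hmgb2, a chromatin protein, stood at 2418 CPM in TMREhi and 961 CPM in TMRElo (2.52, 2.07–3.09), Top2a, the topoisomerase that untangles chromosomes, at 763 CPM in TMREhi and 438 CPM in TMRElo (1.74, 1.3–2.39), and Anp32e, a chaperone of a histone variant, at 518 CPM in TMREhi and 219 CPM in TMRElo (2.37, 1.57–3.75).

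Smc4, the shared core subunit of condensin, went the other way at 485 CPM in TMREhi and 647 CPM in TMRElo (0.75, 0.588–0.971). It was the only one of the 51 genes whose interval lay wholly below 1. Its partner in condensin, Ncapd2, stood at 86.4 CPM in TMREhi and 38.1 CPM in TMRElo (2.27, 0.875–8.39). Lbr, an inner nuclear membrane protein, stood at 143 CPM in TMREhi and 190 CPM in TMRElo (0.75, 0.48–1.24). Anln, the cytokinesis scaffold anillin, was the only gene at least 2-fold lower, at 21.7 CPM in TMREhi and 47.6 CPM in TMRElo (5 UMIs; 0.456, 0.185–1.45). Lbr was found in 14 and Smc4 in 23 of the 34 TMRElo cells, against 3 cells for Top2a and 4 for Mki67, the gene of the Ki-67 protein of dividing cells.

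The TMRElo values rested on very few cells. A single retained TMRElo cell held 39.3% of the UMIs of the 51 genes, against 1.99% for the leading TMREhi cell. Without the cell with the most UMIs of these genes in each library, the summed ratio was 2.72 (2.45–3.04) and 26 of 49 genes were at least 2-fold higher in TMREhi. Without the 5 deepest cells of each library the ratio was 5.78 (4.76–7.09). This took away 5 of 34 TMRElo cells but 5 of 317 TMREhi cells. It left 102 of the 575 UMIs of the 51 genes in TMRElo. With at least 1000 genes and at most 5% mitochondrial UMIs, which left 223 TMREhi and 9 TMRElo cells, the ratio was 1.29 (1.19–1.42), 5 genes were at least 2-fold higher and the median log2 ratio was 0.20.

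Per cell, fewer of the TMRElo cells held many UMIs of these genes. Cells were thinned to 2000 UMIs each, which left out 51 TMREhi and 19 TMRElo cells that were shallower. At least 5 UMIs of the 51 genes were then found in 164 of 266 TMREhi cells (61.7%, exact binomial 95% interval 55.5–67.5) and in 6 of 15 TMRElo cells (40%, 16.3–67.7). Thinned to 1000 UMIs, which kept 282 TMREhi and 27 TMRElo cells, the shares were 47.9% (41.9–53.9) in TMREhi and 14.8% (4.19–33.7) in TMRElo. Cells of 1 library are not replicates, so these intervals describe the cells of each library and do not test a difference between the fractions. Without thinning the shares were 75.4% in TMREhi and 44.1% in TMRElo. At least 20 UMIs, or 1% of a thinned cell, were found in 81 TMREhi cells (30.5%, 25–36.4) and in 2 TMRElo cells (13.3%, 1.66–40.5). The TMREhi cells spread widely, with 13 cells at 0 and 39 cells between 40 and 108 UMIs, and the median was 8 in TMREhi and 4 in TMRElo. The share that free RNA gives cells that do not divide was not measured.

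**Figure D2:**
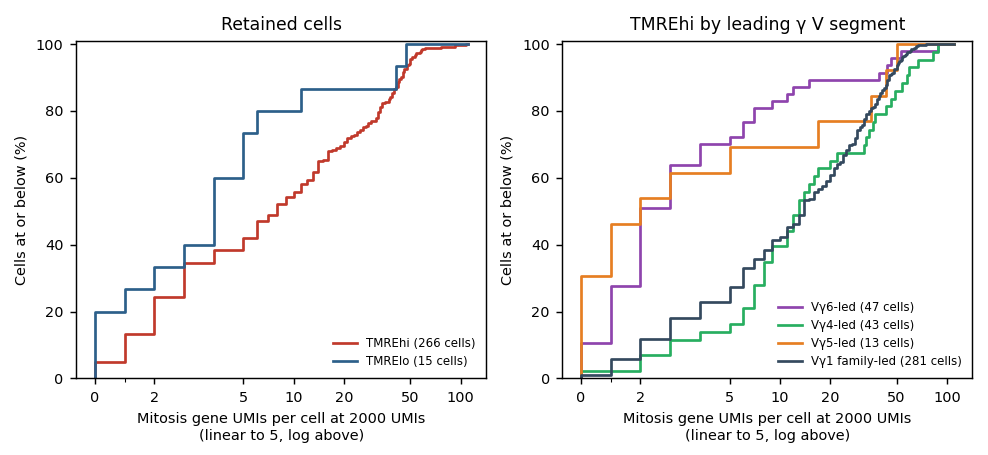
Cumulative share of cells by the number of UMIs of the 51 genes after thinning to 2000 UMIs per cell (linear to 5, log above). On the left, retained TMREhi (266 cells) and TMRElo (15 cells); on the right, TMREhi barcodes by the leading γ V segment, where the Vγ6-led curve (47 cells) and the Vγ5-led curve (13 cells) lie above those of Vγ4-led (43 cells) and Vγ1 family-led barcodes (281 cells) up to 20 UMIs, so that more of their cells hold few UMIs.

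In summed level, a larger difference was seen in barcodes with little ribosomal protein RNA. Barcodes with at least 500 genes were split at 15% of UMIs from ribosomal protein genes, whatever their mitochondrial share. The low-ribosomal class had 733 TMREhi barcodes (median 1555 UMIs) and 117 TMRElo barcodes (median 1037 UMIs), and the high-ribosomal class 292 TMREhi barcodes (median 8356.5 UMIs) and 16 TMRElo barcodes (median 4071 UMIs). The median mitochondrial share of low-ribosomal barcodes was 16.9% in TMREhi and 14.4% in TMRElo. Taken per barcode, the median share of UMIs from the 51 genes was 0.409% in low-ribosomal TMREhi and 0.221% in low-ribosomal TMRElo barcodes. It was 0.349% in high-ribosomal TMREhi and 0.181% in high-ribosomal TMRElo barcodes. As a fold, the difference in these medians was not larger in the low-ribosomal class. In the low-ribosomal class the 51 genes stood at 11366 CPM (11184–11550) in TMREhi and 2926 CPM (2645–3230) in TMRElo, a ratio of 3.88 (3.51–4.30). Here 47 of the 48 genes past the filter were higher in TMREhi, and 41 were at least 2-fold higher, against 8.78% of 8831 genes. The median log2 ratio was 2.52, or 1.92 with low counts taken as 3, against -0.06 for all genes. Without the barcode with the most UMIs of these genes in each library, the count was also 41 of 48. In the same class αβ lineage thymocyte markers summed to 1224 CPM in TMREhi (8 of 8 detected) and 333 CPM in TMRElo (6 of 8, with Rag2 and Ptcra at 0), and their part in the difference was not tested.

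In that class every role group was higher in TMREhi in its summed level. Mki67 stood at 1240 CPM in TMREhi and 126 CPM in TMRElo (9.85, 6.13–16.9), and Top2a at 1366 CPM in TMREhi and 267 CPM in TMRElo (5.12, 3.69–7.34). Hmgb2 stood at 1272 CPM in TMREhi and 207 CPM in TMRElo (6.13, 4.23–9.25). Cenpf had 521 UMIs in TMREhi and 1 in TMRElo, and Cenpe, the kinetochore motor, had 340 in TMREhi and 1 in TMRElo. Ect2, which starts the cleavage furrow, was at 195 UMIs in TMREhi against 0 in TMRElo (6.68-fold or more when set against 3 counts). Ube2c had 188 UMIs in TMREhi and 0 in TMRElo. Anln, lower in TMREhi among retained cells, was here higher at 99.0 CPM in TMREhi and 22.2 CPM in TMRElo (4.46, 1.49–21.9).

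Smc4 was again the exception, at 523 CPM in TMREhi and 778 CPM in TMRElo (0.672, 0.546–0.833). It was detected in 60 of the 117 TMRElo barcodes, against 10 for Top2a. Lbr, at 505 CPM in TMREhi and 333 CPM in TMRElo (1.52, 1.12–2.10), and G2e3, a ubiquitin ligase gene named for its G2 expression, at 138 CPM in TMREhi and 81.5 CPM in TMRElo (1.69, 0.923–3.45), had smaller ratios than most. Smc4, Lbr and G2e3 were also among the genes found in the most TMRElo barcodes of the class relative to TMREhi.

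In summed level, the direction between the classes differed between the libraries at the 15% boundary. In TMREhi the 51 genes stood at 11366 CPM in low-ribosomal and 10152 CPM in high-ribosomal barcodes (1.12, 1.10–1.14), and in TMRElo at 2926 CPM in low-ribosomal and 6234 CPM in high-ribosomal barcodes (0.469, 0.411–0.536). One high-ribosomal TMRElo barcode held 43.0% of the UMIs of these genes in its class, and without the leading barcodes the TMRElo ratio was 0.657 (0.563–0.769). The median share per barcode was higher in the low-ribosomal class in both libraries. It was 0.409% against 0.349% in TMREhi and 0.221% against 0.181% in TMRElo. Ribosomal protein UMIs, which set the classes, are also part of the total to which these levels and shares are scaled. Their median share in TMREhi was 5.26% in low-ribosomal and 31.8% in high-ribosomal barcodes. In TMRElo it was 2.58% in low-ribosomal and 26.2% in high-ribosomal barcodes. A total without them was not used for the classes, so the part of the total in these directions was not tested. With the boundary at 20% the TMRElo ratio was 0.875 (0.763–1.01), an interval that includes 1. Without Rag1-positive barcodes the TMREhi ratio was 0.960 (0.937–0.983), on the same side of 1 as in TMRElo. Within TMREhi, single genes lay on both sides. Mki67 (2.96, 2.75–3.19), Lbr (3.5, 3.09–3.96), Cbx5, a heterochromatin protein (3.37, 2.99–3.81), and Anln (4.75, 3.48–6.54) were higher in low-ribosomal barcodes. Ube2c (0.275, 0.235–0.320), Cks1b (0.278, 0.226–0.339), Cks2 (0.370, 0.317–0.430) and Ccnb2 (0.352, 0.269–0.454) were lower there. In all, 16 of 50 genes were at least 2-fold higher, against 46.5% of 8447 genes, and 7 were at least 2-fold lower, against 11%. In TMRElo 21 of 42 genes were at least 2-fold lower in low-ribosomal barcodes, against 14.8% of 8319 genes.

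Among high-ribosomal barcodes the TMREhi level was 1.63 times the TMRElo level (1.49–1.78), or 2.43 times (2.17–2.73) without the leading barcodes. Of 49 genes, 8 were at least 2-fold higher in TMREhi, against 3.01% of 7410 genes. They were Ccnb2, Cks2, Ube2c, Cdc20, Kif11, Kif20b, Hmmr and Hmgb2. Ube2c stood at 521 CPM in TMREhi and 71.1 CPM in TMRElo (7.33, 3.36–20), while Top2a stood at 749 CPM in TMREhi and 533 CPM in TMRElo (1.40, 1.05–1.93).

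**Figure D3:**
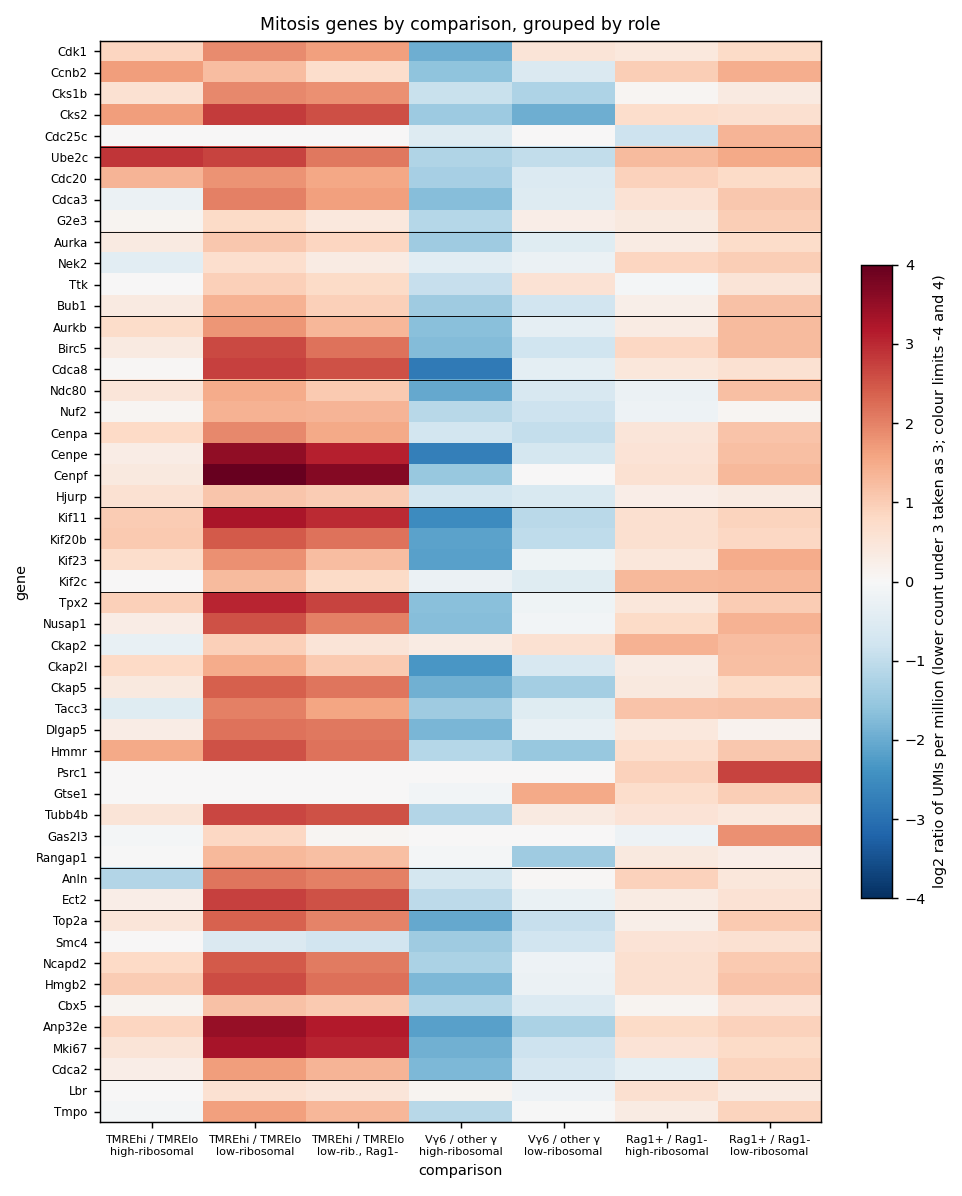
log2 ratio of CPM for each of the 51 genes (rows, grouped by role) in 7 comparisons (columns), red where higher and blue where lower in the group named first, white where the low count left no direction. The low-ribosomal TMREhi over TMRElo columns are red for nearly all genes apart from Smc4, and the high-ribosomal Vγ6 column is blue for most.

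The leading γ V segment of a barcode, its most abundant γ segment, marked differences within TMREhi. Vγ6 chains belong to the fetal wave of IL-17-producing cells, Vγ5 chains to the precursors of epidermal γδ T cells, and the Vγ1 family here joins Trgv2, Tcrg-V1 and Tcrg-V3, which are closely related and may share reads. In the 97 Vγ6-led barcodes with at least 500 genes the 51 genes stood at 4477 CPM (4244–4720), against 10700 CPM (10585–10816) in the 515 barcodes led by another γ segment, a ratio of 0.418 (0.396–0.442). Of 50 genes past the filter 48 were lower in Vγ6-led barcodes, and 32 at least 2-fold lower, against 10.3% of 8031 genes. Median depths differed, at 1917 UMIs in Vγ6-led and 2910 in the other barcodes.

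The gap was wider within the high-ribosomal class, at 3772 CPM in 41 Vγ6-led barcodes and 11022 CPM in 214 others (0.342, 0.319–0.367). Median depth in this class was 4856 UMIs in Vγ6-led and 10103.5 UMIs in the other barcodes. There 37 of 47 genes were at least 2-fold lower in Vγ6-led barcodes, against 10.9% of 7310 genes, or 39 of 47 without the leading barcode of each set. Cdca8 stood at 27.1 CPM in Vγ6-led and 193 CPM in other barcodes (0.141, 0.0514–0.309), Top2a at 199 CPM in Vγ6-led and 817 CPM in other barcodes (0.243, 0.176–0.328), and Mki67 at 122 CPM in Vγ6-led and 461 CPM in other barcodes (0.265, 0.174–0.387). Smc4 also was lower here, at 190 CPM in Vγ6-led and 510 CPM in other barcodes (0.372, 0.267–0.506). Lbr did not follow, at 154 CPM in Vγ6-led and 143 CPM in other barcodes (1.07, 0.731–1.53), and nor did Rangap1, the activator of the nuclear transport factor Ran, at 67.8 CPM in Vγ6-led and 72.2 CPM in other barcodes (0.939, 0.515–1.59). Thinned to 2000 UMIs, 7 of 36 Vγ6-led cells (19.4%, 8.19–36.0) and 147 of 211 other cells (69.7%, 63.0–75.8) held at least 5 UMIs of the 51 genes, with 5 Vγ6-led and 3 other cells left out. Unthinned, the shares were 41.5% of Vγ6-led and 90.7% of other cells.

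In the low-ribosomal class the Vγ6-led barcodes were closer to the others, at 6274 CPM in 56 barcodes and 9411 CPM in 301 (0.667, 0.609–0.728), with 8 of 50 genes at least 2-fold lower, against 4.55% of 8686 genes. Cenpf, lower among high-ribosomal Vγ6-led barcodes, stood at 322 CPM in Vγ6-led and 318 CPM in other barcodes of this class (1.01, 0.656–1.51). One barcode held 31.3% of the UMIs of these genes in high-ribosomal and another 22.4% in low-ribosomal Vγ6-led barcodes. None of the 133 TMRElo barcodes with at least 500 genes was Vγ6-led, so the fractions could not be compared for this segment.

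Vγ1 family-led TMREhi barcodes, the most numerous with 381, stood at 10944 CPM (10818–11071), and 86 Vγ4-led ones at 9708 CPM (9345–10082). The 39 Vγ5-led barcodes stood at 7371 CPM (6861–7908), but 1 of them held 70.4% of those UMIs. Without the barcode with the most UMIs in each set, the ratio of Vγ5-led to the other γ-led barcodes was 0.284 (0.248–0.323), against 0.721 (0.671–0.774) with it. Thinned high-ribosomal cells with at least 5 UMIs of the 51 genes numbered 1 of 8 Vγ5-led, 8 of 12 Vγ4-led and 134 of 187 Vγ1 family-led cells.

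Among low-ribosomal barcodes the difference between the fractions was also seen with the leading segment held the same. In Vγ1 family-led barcodes of that class the 51 genes stood at 9646 CPM in 191 TMREhi barcodes and 2936 CPM in 55 TMRElo barcodes (3.28, 2.84–3.82), and 22 of 48 genes were at least 2-fold higher in TMREhi, against 5.05% of 8697 genes. Among low-ribosomal Vγ4-led barcodes the levels were 10507 CPM in 74 TMREhi and 2316 CPM in 21 TMRElo barcodes (4.54, 3.43–6.12), the TMRElo value from 51 UMIs. There 7 of 49 genes were at least 2-fold higher in TMREhi, against 1.66% of 8248 genes. Among high-ribosomal Vγ1 family-led barcodes they were 11184 CPM in 190 TMREhi and 8265 CPM in 10 TMRElo barcodes (1.35, 1.24–1.48), with 44.4% of the TMRElo UMIs in 1 barcode. Thinned to 2000 UMIs, 134 of 187 of these TMREhi cells (71.7%, 64.6–78.0) and 6 of 9 of these TMRElo cells (66.7%, 29.9–92.5) held at least 5 UMIs of the 51 genes.

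**Figure D4:**
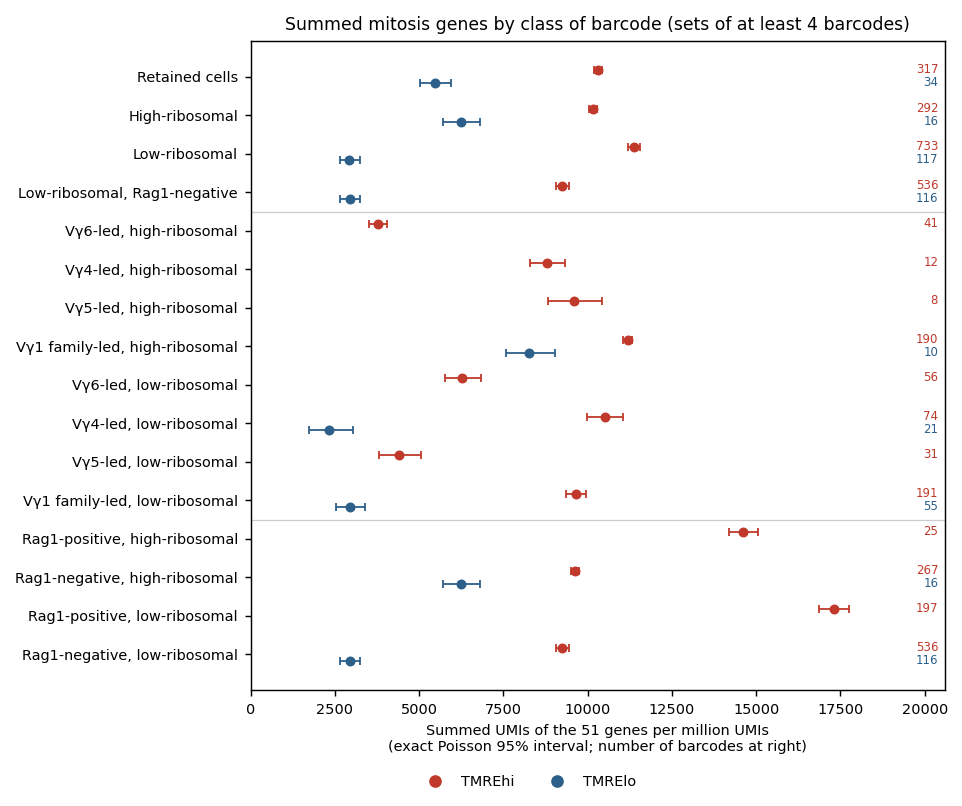
Summed CPM of the 51 genes in 16 classes of barcode, where a library has at least 4 barcodes of the class, for TMREhi (red) above TMRElo (blue), with exact Poisson 95% intervals and the number of barcodes at right. Of the classes drawn, Rag1-positive low-ribosomal TMREhi barcodes lie farthest right and low-ribosomal Vγ4-led TMRElo barcodes farthest left. Barcodes with no γ segment are not drawn. In the high-ribosomal Vγ5-led TMREhi class, 1 of 8 barcodes holds 94.6% of the UMIs of these genes.

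Barcodes with a Rag1 UMI held more of these genes. The Rag1 protein belongs to the recombinase that joins V, D and J segments, and thymocytes express it while they rearrange them. In TMREhi the 222 Rag1-positive barcodes stood at 16044 CPM (15738–16355) and the 803 Rag1-negative ones at 9527 CPM (9427–9629), a ratio of 1.68 (1.65–1.72). Of 51 genes 50 were higher in Rag1-positive barcodes, and 15 at least 2-fold higher, against 10% of 8213 genes. Median depth was 1640 UMIs in Rag1-positive and 2138 UMIs in Rag1-negative barcodes, but among γ-led barcodes it was 3416 UMIs in Rag1-positive and 2733 UMIs in Rag1-negative ones. Among high-ribosomal barcodes it was 10801 UMIs in Rag1-positive and 8148 UMIs in Rag1-negative ones. The part of depth in the difference was not tested.

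The markers of αβ lineage thymocytes include Rag1 itself. All 8 of them were detected in Rag1-positive barcodes, at 2346 CPM in sum. In Rag1-negative barcodes 7 of 8 were detected, at 254 CPM, where Rag1 was at 0 by the split. Part of the gap between these sums was thus fixed by the split, and a sum without Rag1 is not given here. The part of these markers in the difference in the 51 genes was not tested. A γ segment led in 49 Rag1-positive barcodes, which stood at 15007 CPM (14584–15439) for the 51 genes, against 9629 CPM (9520–9739) in 563 γ-led Rag1-negative barcodes. The 165 Rag1-positive barcodes with no γ segment stood at 18024 CPM (17550–18507), and the 162 Rag1-negative ones with none at 11379 CPM (11000–11767).

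Within the low-ribosomal class the ratio was 1.87 (1.81–1.93), with 51 of 51 genes higher in Rag1-positive barcodes and 24 at least 2-fold higher, against 6.98% of 8753 genes. Ube2c stood at 275 CPM in Rag1-positive and 96.2 CPM in Rag1-negative barcodes (2.85, 2.12–3.84), Ccnb2 at 98.3 CPM in Rag1-positive and 36.2 CPM in Rag1-negative barcodes (2.71, 1.64–4.48), and Cenpf at 702 CPM in Rag1-positive and 288 CPM in Rag1-negative barcodes (2.44, 2.05–2.91). Nuf2, of the outer kinetochore, stood at nearly the same level, 60.7 CPM in Rag1-positive and 57.9 CPM in Rag1-negative barcodes (1.05, 0.602–1.76). In the high-ribosomal class the ratio was 1.52 (1.47–1.57), and 4 of 51 genes were at least 2-fold higher, against 5.83% of 7188 genes. This class had 25 Rag1-positive barcodes, against 267 Rag1-negative ones. Of the UMIs of the 51 genes in those 25 barcodes, 5 barcodes held 50.6%.

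TMRElo had 1 Rag1-positive barcode among 133. Without Rag1-positive barcodes, the low-ribosomal class stood at 9243 CPM in 536 TMREhi barcodes and 2936 CPM in 116 TMRElo barcodes (3.15, 2.85–3.49). There 37 of 48 genes were at least 2-fold higher in TMREhi, against 7.91% of 8802 genes.

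Within the 317 retained TMREhi cells the 51 genes varied together. The Pearson correlation of each gene with the sum of the other 50, over log(1 + UMIs per 10000), had a median of 0.59, and 34 of 51 genes were above 0.5. The median correlation of 6696 other genes with the summed 51 was 0.06. All these values share the cells, their library and their depth, with which the summed share itself correlated at 0.41 (0.60 in the 270 high-ribosomal cells), so they describe these cells only. Top2a had the highest value at 0.79, followed by Cdca8, Mki67 and Birc5 at 0.76 each. Psrc1 (0.22), Lbr (0.23) and G2e3 (0.27) had the lowest. Psrc1 was found in 5.36% of cells, but Lbr was found in 58.0%, more than Top2a at 51.4%, and Rangap1, at 0.35, in 36.9%. Lbr and Rangap1 also stood out among Vγ6-led barcodes, where both were near the level of the others.

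**Figure D5:**
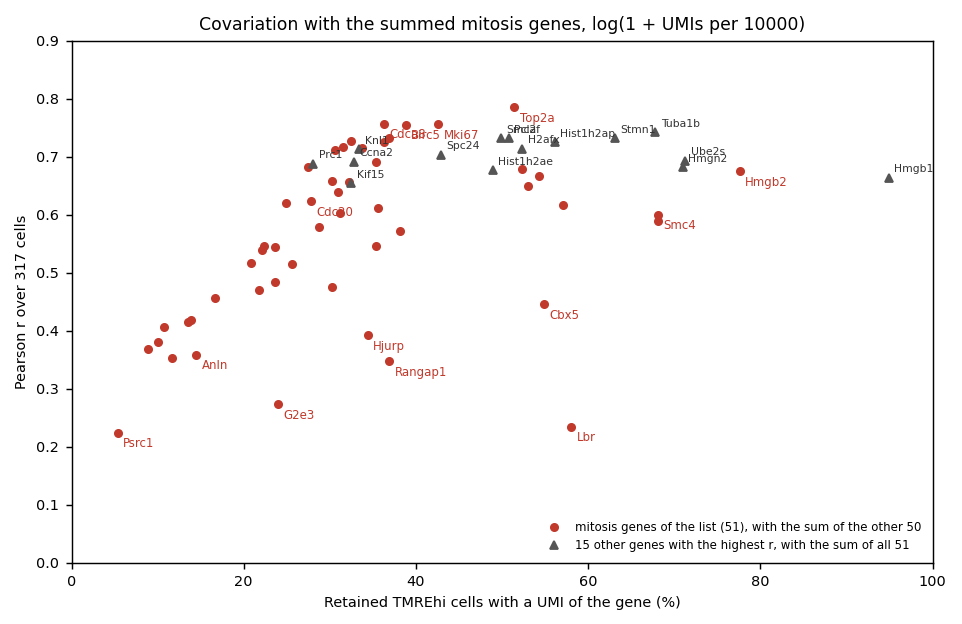
Pearson r over the 317 retained TMREhi cells against the share of cells with a UMI of the gene, for the 51 genes with the sum of the other 50 (circles) and for the 15 other genes with the highest r with the sum of all 51 (triangles). Lbr, Cbx5, Rangap1 and G2e3 lie below genes found in similar shares of cells, and Top2a lies highest.

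Outside the list, 6696 genes with a UMI in at least 10% of these cells were ranked by their correlation with the summed 51. The 15 highest were Tuba1b (0.74), Smc2, Pclaf, Stmn1, Hist1h2ap, H2afx, Knl1, Spc24, Ube2s, Ccna2, Prc1, Hmgn2, Hist1h2ae, Hmgb1 and Kif15 (0.65). Smc2 is the other core subunit of condensin, Ccna2 is cyclin A2, Prc1 bundles the microtubules of the dividing cell's midzone, and Pclaf binds the replication clamp. The lowest was S100a6, a calcium-binding protein, at -0.45, and Tcrg-V6 itself stood at -0.39. The sum of 43 S phase genes correlated with the sum of the 51 at 0.43.

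Other cell cycle genes were set beside the list. Of 59 further mitosis genes, 56 passed the filter in retained cells. Of these, 46 were higher in TMREhi and 10 lower, 12 were at least 2-fold higher (3.81% of all genes), and the median log2 ratio was 0.78, or 0.49 with low counts taken as 3. H2afz, a histone variant, stood at 2520 CPM in TMREhi and 1085 CPM in TMRElo (2.32, 1.93–2.82). S phase genes had smaller ratios, with 29 of 40 higher, 4 at least 2-fold higher (again 3.81% of all genes) and a median of 0.36. Pcna, the replication clamp, stood at 246 CPM in TMREhi and 266 CPM in TMRElo (0.925, 0.634–1.40).

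The 16 subunits and enzymes of the anaphase-promoting complex had a median of 0.28, with 11 higher in TMREhi and 5 lower. Ube2s, which extends the ubiquitin chains begun by Ube2c, stood at 682 CPM in TMREhi and 285 CPM in TMRElo (2.39, 1.67–3.55). The subunit Anapc5 stood at 204 CPM in TMREhi and 181 CPM in TMRElo (1.13, 0.716–1.89). Of 11 arrest and quiescence genes past the filter, 10 were lower in TMREhi and 5 at least 2-fold lower, where 30.5% of all genes were, with a median of -0.92 beside -0.35 for all genes. The filter let low genes pass on few TMRElo UMIs, which bears on these counts and on both all-gene values. Btg1, which restrains proliferation, stood at 112 CPM in TMREhi and 371 CPM in TMRElo (0.301, 0.216–0.432). Of 20 cell cycle transcription factors, 11 were higher in TMREhi and 9 lower, with a median of 0.19. In the low-ribosomal class the further mitosis genes had a median of 2.59 (44 of 59 at least 2-fold higher), the S phase genes 1.19 (24 of 42) and the arrest genes -0.16. In that class 8.78% of all genes were at least 2-fold higher, and their median was -0.06. The medians of this class were not taken with low counts as 3, so genes with few TMRElo UMIs can enlarge them.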

How the data were processed

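The authors deposited whole-number UMI counts per gene and barcode, made with Cell Ranger 3.0.2 per the file headers and on mm10 per the submitters' processing notes, which name Cell Ranger 3.0. Neither the annotation nor the cell-calling settings is given in the sources used here. Before filtering, TMREhi had 1202 barcodes with 4350485 UMIs and TMRElo 196 barcodes with 245048 UMIs. UMIs were summed over barcodes and scaled to CPM. Log2 ratios used 1 CPM added to both values. In retained cells, 3 UMIs equal 1.03 CPM for TMREhi against 28.5 CPM for TMRElo, which limits what can be said of low genes. Genes 2-fold apart were counted where the mean of both groups reached 10 CPM, with a count under 3 in the lower group taken as 3. Intervals cover counting error only, and no p-value is given. Thinning drew UMIs without replacement (seed 1). Scrublet called 6 of 1025 TMREhi and 2 of 133 TMRElo barcodes with at least 500 genes as doublets, which were kept. Barcodes in which γ segments of different families tied were left out of the segment sets. Full values were planned for genes whose mean reached 50 CPM and for the 10 largest and 5 smallest ratios. The genes and lists were chosen with earlier results of these data known. The scripts ran on scanpy 1.11.5, matplotlib 3.10.9, pandas 2.3.3, scipy 1.17.1, numpy 2.4.6 and Python 3.11.15, and the ratio code was checked on simulated data.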

Additional observations from a re-analysis of the deposited data

Results flagged for a closer look

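In summed level, opposite directions were found for the low-ribosomal over the high-ribosomal class in the libraries. The summed 51 genes had a ratio of 1.12 in TMREhi and 0.469 in TMRElo. Of the UMIs of these genes in the 16 high-ribosomal TMRElo barcodes, 1 barcode held 43.0% and 5 held 91.3%. The median share per barcode did not reverse. It was 0.409% in low-ribosomal and 0.349% in high-ribosomal TMREhi barcodes, and 0.221% in low-ribosomal and 0.181% in high-ribosomal TMRElo barcodes. Ratios and shares were scaled to totals that include the ribosomal protein UMIs by which the classes were split, and the part of this was not tested. Without Rag1-positive barcodes the TMREhi ratio was 0.960 (0.937–0.983), so that both libraries lay below 1. With the boundary at 20% the TMRElo ratio was 0.875 (0.763–1.01). Single genes with opposite directions and counting intervals on opposite sides of 1 were Cenpe (1.99 in TMREhi, 0.0695 in TMRElo), Cenpf (1.81 in TMREhi, 0.0447 in TMRElo), Top2a (1.82 in TMREhi, 0.5 in TMRElo) and Mki67 (2.96 in TMREhi, 0.425 in TMRElo). Cenpe and Cenpf had 1 UMI each in low-ribosomal TMRElo barcodes. Within TMREhi, Vγ4-led over other γ-led barcodes had a summed ratio of 0.838 in the high-ribosomal class (12 Vγ4-led barcodes) and 1.22 in the low-ribosomal class (74 Vγ4-led barcodes). Of the UMIs of these genes in the 12 high-ribosomal Vγ4-led barcodes, 1 barcode held 37.7% and 5 held 87.8%. The leading low-ribosomal Vγ4-led barcode held 10.3%. The median share per barcode did not reverse here either, and was higher in Vγ4-led than in other γ-led barcodes in both classes. These differences were not tested, since each rests on 1 library.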

How the results depend on the processing

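Of 79 alternative values, 29 stayed within the counting interval or count limit of the value reported, 48 moved beyond it in the same direction or without one, and 2 reversed. The summed TMREhi over TMRElo ratio of 1.88 was 2.59 over all deposited barcodes, 2.51 with no mitochondrial limit, 1.29 under the stricter filter, 5.78 without the 5 deepest cells, 2.29 as a mean over cells, 2.09 with mitochondrial, ribosomal and receptor genes left out of the total, and 2.72 without the leading cells. In the same order, leaving out the sixth of these, the genes at least 2-fold higher (15) were 35, 33, 5, 21, 24 and 26, and the median log2 ratio (0.77) was 1.49, 1.51, 0.20, 5.38, 1.79 and 1.32. The 5.38 rests on genes with no counts: 25 of the 45 genes past the filter were at 0 in the TMRElo cells left, and with low counts taken as 3 the median was 0.89. The low over high-ribosomal ratio was 1.14 and 1.08 in TMREhi with boundaries at 10% and 20%, and reversed to 0.960 without Rag1-positive barcodes; in TMRElo it was 0.875 at 20% and 0.657 without the leading barcodes. The TMREhi over TMRElo ratio at 20% was 2.75 in the low and 2.24 in the high-ribosomal class, 3.15 in the low class without Rag1-positive barcodes and 2.43 in the high class without the leading barcodes.

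The Vγ6-led ratio was 0.342 in high-ribosomal, 0.667 in low-ribosomal and 0.338 in retained cells, 0.389 with at least 2 UMIs of the segment and 0.355 without the leading barcodes. The Vγ4-led ratio of 0.954 was 0.838, 1.22 (reversed) and 0.848 in those 3 sets and 0.878 without the leading barcodes. The reversal is in summed level only, as the median share per barcode was higher in Vγ4-led barcodes in both ribosomal classes. The Vγ5-led ratio was 0.919, 0.472 and 0.960, and 0.284 without the leading barcodes. A single barcode held 94.6% of the UMIs of these genes in the 8 high-ribosomal and 95.5% in the 7 retained Vγ5-led barcodes. The Vγ1 family-led ratio of 1.51 was 1.67, 1.18 and 1.66, 1.56 with at least 2 UMIs and 1.60 without the leading barcodes. The Rag1 ratio was 1.52, 1.87 and 1.53. Thinned to 1000 UMIs, the share of cells with at least 5 UMIs of the genes was 47.9% in TMREhi and 14.8% in TMRElo. The cause of these shifts was not tested. Alternatives that leave out leading barcodes or Rag1-positive barcodes of a class were chosen after seeing the data. No paired analysis was possible because each group has 1 library. The depth of TMRElo limits single genes: 575 UMIs were spread over the 51 genes in its retained cells.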
